A study of Homo sapiens with 12 samples.

Results

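Transforming growth factor beta (TGF-beta) ligands, receptors, regulators and targets were examined in Daoy cells, an established human medulloblastoma (MB) line, after culture in astrocyte conditioned medium (ACM) or in DMEM. The 9 genes were picked by their place in the pathway, with earlier results of these data known: the ligands TGFB1 and TGFB2 with the latency protein LTBP1, the receptors TGFBR1 and TGFBR2, the regulators SMAD7 and SKIL, and the targets CCN2 and TGFBI. They were measured by 10 probes, of 31078 probes for 25275 genes that passed the filter on dim signals. LTBP1 had 2 probes and each other gene 1, and the brightest probe of a gene leads. All 10 probes were well above background on all 12 arrays, so none of the 9 genes was lost to the filter.

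The study compared 4 groups of 3 arrays, each hybridised with Cy3-labelled RNA. P1 ACM and P3 ACM were Daoy cells kept in ACM through 1 passage (P1) or 3 passages (P3), each lasting 48 h. The ACM was collected from cultured astrocytes of the hippocampi of Sprague Dawley rat pups that were 1 to 2 days old. P1 DMEM and P3 DMEM were Daoy cells passaged in the same way in full DMEM medium. All 4 groups are this single human line, no fresh astrocytes were in the dish, and the labels speak of 3 independent experiments.

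TGF-beta is secreted in a latent complex that latent TGF-beta binding proteins such as LTBP1 tether to the matrix, and once released it binds the type II receptor TGFBR2, which recruits and phosphorylates the type I receptor TGFBR1. The receptors then activate SMAD2 and SMAD3, which enter the nucleus with SMAD4 and switch on genes that include their own inhibitors, SMAD7 and SKIL (the SnoN protein). In brain tumours the pathway is best known for its links to invasion, matrix production and the exchange of signals with surrounding glia, and astrocytes secrete TGF-beta ligands.

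Levels are given on the log2 scale after each array was divided by its own 75th percentile of background-corrected intensity, so a level of 0 is the brightness below which 75% of the probes of that array lie. A level of one gene cannot be set against that of another, since probes differ in brightness. Differences are ACM minus DMEM on this log2 scale, where 1 is a 2-fold change, with standard errors (SE), 95% intervals and p-values from a single limma model of all 12 arrays. A gene was counted as past the thresholds of the study with more than 2-fold change and an unadjusted p of 0.05 or less. With 3 arrays against 3, the exact permutation test of a single gene cannot give a p below 0.1.

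The 12 arrays lay on 3 slides of 4, and no slide held both media of a passage, so slide and medium cannot be told apart within a passage. Slide 1 held P1 ACM 1 to 3 and P3 ACM 1, slide 2 held P3 ACM 2 and 3 with P1 DMEM 1 and 2, and slide 3 held P1 DMEM 3 and P3 DMEM 1 to 3. A fit with slide as a block links slides 1 and 2 only through P3 ACM, and slides 2 and 3 only through P1 DMEM. Each link has a single array on 1 side, so the values of that fit rest on few arrays. Between 91% and 94.6% of the probes were well above background on slide 1, 74.3% to 80.4% on slide 2 and 88.1% to 91% on slide 3. The labels are also in conflict between both deposited forms of the data: each of the 12 columns of the normalized table ranked its probes as the scanner output of another sample (Spearman's rho of at least 0.99998 with that sample against 0.953 to 0.992 with its own). The values below follow the labels of the scanner output, and the values under the labels of the table are given beside a gene or among the processing alternatives where they turn its direction. Of the markers of the MB and granule lineage, EN2, PAX6, ZIC2, GLI2, NES and VIM were well above background on 12 of 12 arrays, while ATOH1, which defines granule cell precursors, was so on 2 arrays and NEUROD1 on 3. GFAP, the defining astrocyte filament, was well above background on 7 arrays. Of the other astrocyte markers, AQP4, SLC1A3, ALDH1L1, GJA1 and SOX9 were so on 12 arrays, SLC1A2 on 11 and S100B on 7.

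No member was past the thresholds at P1 (0 of 9, against 13.6% of all genes tested) or at P3 (0 of 9, against 1.73%). At p of 0.05 or less without a limit on fold, no member was called at P1 (24% of all genes) and TGFBI alone was called at P3 (7.28%). No gene of the 25275 reached an adjusted p of 0.05 at either passage, the smallest being 0.0954 at P1 and 0.195 at P3 (limma, Benjamini-Hochberg). That count at P1 was 4849 genes with only the P1 arrays in the fit, and 5185 without P3 ACM 1, and in both 0 of the 9 members were among them. The median difference of the 9 members was -0.06 at P1 and -0.02 at P3, against 0.15 and 0.00 for all genes and -0.08 and -0.09 for the 8425 genes of highest mean level over the 12 arrays. Quantile normalization moved the median of all genes at P1 from 0.15 to 0.00, so differences at P1 are read beside that shift. The unadjusted 95% interval lay within a 2-fold change either way for 8 of the 9 members at P1 (57.6% of all genes) and for 7 of 9 at P3 (62.5%). The exceptions were SKIL at both passages and CCN2 at P3.

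**Figure D1:**
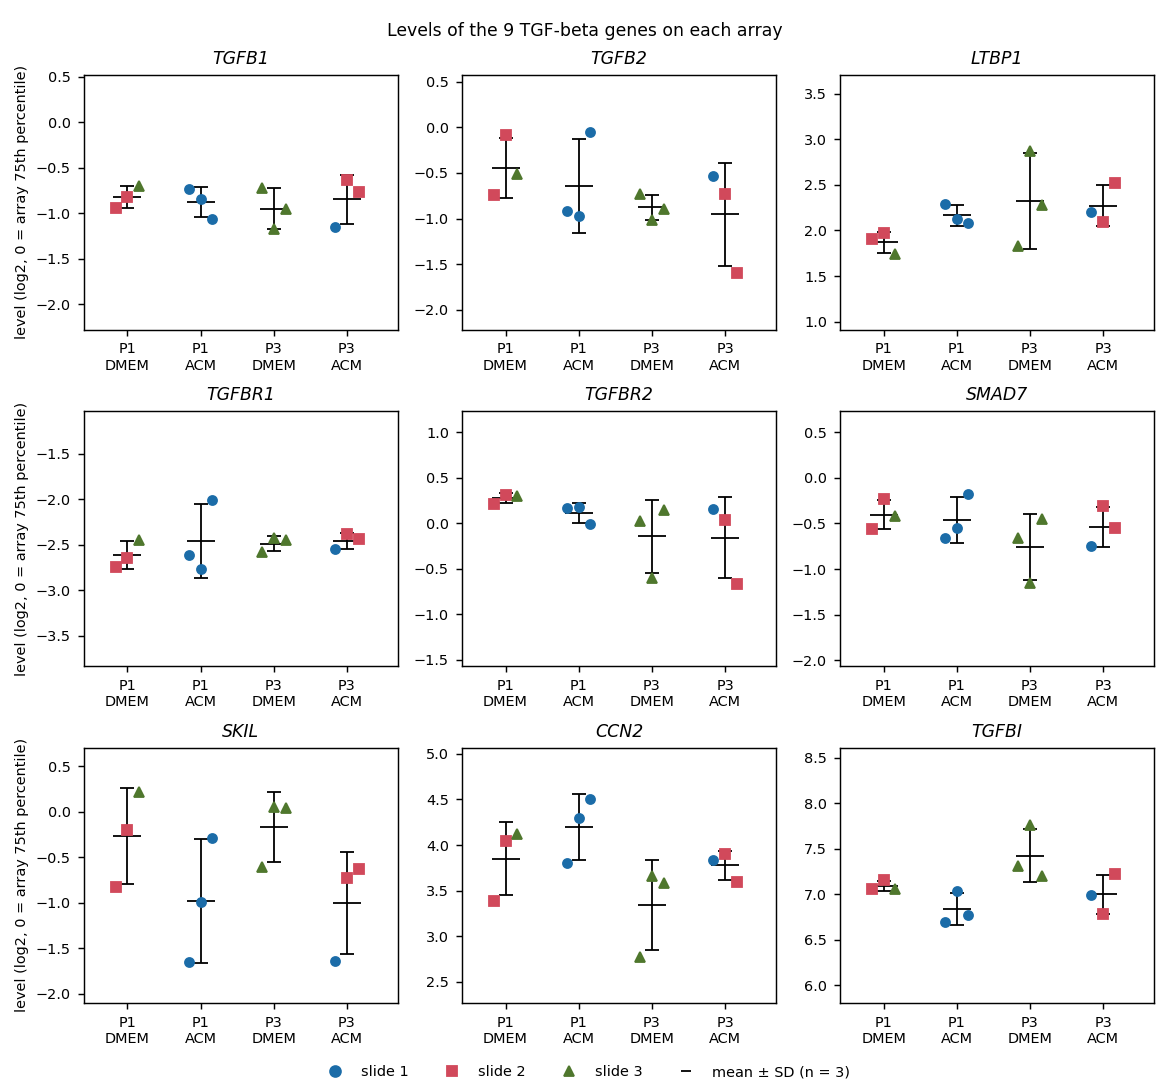
Level (log2, 0 is the 75th percentile of the array) of the 9 genes on each of the 12 arrays, with 1 panel per gene, all spanning the same range; points are arrays coloured and shaped by slide, and bars are the mean and SD of 3 arrays. SKIL lies lower on the ACM arrays on average at both passages, with its lowest points (-1.65 and -1.64) on slide 1, and TGFB1 and TGFBR1 stand at nearly the same height in all groups.

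The ligand genes did not differ between media beyond their spread. TGFB1, which encodes the most widely expressed of the TGF-beta ligands, stood at -0.74, -0.84 and -1.06 in P1 ACM and -0.94, -0.82 and -0.70 in P1 DMEM. At P3 its levels were -1.15, -0.63 and -0.77 in ACM and -0.73, -1.18 and -0.95 in DMEM. The arrays of both media overlapped at each passage, and the limma differences were -0.06 (SE 0.19, adjusted p = 0.914) at P1 and 0.10 (SE 0.19, adjusted p = 0.897) at P3. The 95% intervals were -0.47 to 0.36 and -0.31 to 0.52.

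TGFB2, the ligand gene known for its activity in neural tissue and glioma, varied more from array to array. Its levels were -0.92, -0.97 and -0.05 in P1 ACM, and -0.74, -0.09 and -0.51 in P1 DMEM. At P3 they were -0.54, -0.73 and -1.59 in ACM, and -0.73, -1.01 and -0.89 in DMEM. The extremes of both passages, P1 ACM 3 and P3 ACM 3, were ACM arrays, and the media overlapped. The differences were -0.20 (SE 0.32, 95% interval -0.90 to 0.51) at P1 and -0.07 (SE 0.32, -0.78 to 0.63) at P3, with adjusted p = 0.809 and adjusted p = 0.958. Without P3 ACM 3 the P3 difference was 0.25 in place of -0.07, so its direction rested on that array.

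LTBP1 was the only member of which all ACM arrays lay above all DMEM arrays at a passage. At P1 its leading probe stood at 2.29, 2.12 and 2.08 in ACM against 1.90, 1.97 and 1.75 in DMEM, a difference of 0.29 (SE 0.24, limma p = 0.252, exact permutation p = 0.1). This order held for 30.7% of all genes at P1. At P3 the levels were 2.20, 2.10 and 2.52 in ACM and 1.83, 2.88 and 2.28 in DMEM, which overlapped, with a difference of -0.05 (SE 0.24, adjusted p = 0.960). The P3 DMEM arrays spread over the widest range of any group, and without P3 DMEM 2, the highest of them, the P3 difference was 0.22. The second LTBP1 probe gave 0.28 (SE 0.20) at P1 and 0.18 (SE 0.20) at P3, with overlapping arrays at both.

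The receptor genes were close to level. TGFBR1, the type I receptor kinase, stood at -2.61, -2.77 and -2.004 in P1 ACM and -2.74, -2.64 and -2.45 in P1 DMEM. At P3 it stood at -2.55, -2.38 and -2.44 in ACM and -2.58, -2.42 and -2.45 in DMEM, the smallest spread among the members at P3. The media overlapped at both passages, and the differences of 0.15 (SE 0.20, adjusted p = 0.758) and 0.03 (SE 0.20, adjusted p = 0.978) turned to -0.12 and -0.10 under quantile normalization.

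TGFBR2, the ligand-binding type II receptor, was lower on all 3 ACM arrays than on all 3 DMEM arrays at P1, by a small amount. Its levels were 0.17, 0.17 and -0.01 in P1 ACM and 0.22, 0.31 and 0.30 in P1 DMEM, a difference of -0.17 (SE 0.25, limma p = 0.515, exact permutation p = 0.1). ACM arrays below all DMEM arrays were seen for 5.39% of all genes at P1, and for 2 of the 9 members, TGFBR2 and TGFBI. At P3 TGFBR2 stood at 0.15, 0.04 and -0.67 in ACM and 0.02, -0.60 and 0.15 in DMEM. One array of each medium was low there, the media overlapped, and the difference was -0.02 (SE 0.25, adjusted p = 0.989).

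SMAD7, the inhibitory SMAD that targets the active receptor for degradation, did not separate by medium. It stood at -0.66, -0.55 and -0.18 in P1 ACM and -0.56, -0.23 and -0.41 in P1 DMEM. At P3 it stood at -0.75, -0.31 and -0.55 in ACM and -0.66, -1.16 and -0.45 in DMEM. The arrays overlapped at both passages, and the differences were -0.06 (SE 0.22, adjusted p = 0.929) and 0.22 (SE 0.22, adjusted p = 0.807). P3 DMEM 2 was the lowest of the 12 arrays, and without it the P3 difference was 0.02.

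SKIL, the nuclear co-repressor that binds SMAD complexes and is itself induced by the pathway, had the largest differences of the members at both passages. Its levels were -1.65, -0.997 and -0.29 in P1 ACM and -0.83, -0.20 and 0.22 in P1 DMEM. The media overlapped at P1, although each ACM array was below the DMEM array of the same replicate number. The difference was -0.71, or 1.63-fold lower in ACM (SE 0.40, 95% interval -1.59 to 0.18, limma p = 0.108, adjusted p = 0.344, exact permutation p = 0.2).

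At P1 the deviations of arrays with the same number from their group means correlated over all probes by 0.43, 0.19 and 0.27. At P3 these correlations were 0.23, -0.19 and 0.06, a range that overlaps that of P1. The P1 arrays were read as pairs from these values alone, since the sample titles give only a number. The p-values of the next 2 fits therefore hold only if equal numbers are pairs, and the first fit joins equal numbers over both passages. With the replicate number as a block the SKIL difference kept its size, with a limma p of 0.00312 and an adjusted p of 0.126, and with pairs of the same passage as the block the p was 0.00389 and the adjusted p 0.132. Without P1 ACM 3 SKIL was past the thresholds at P1 (-1.05, adjusted p = 0.220), and without P1 DMEM 1 the difference was -0.99 (adjusted p = 0.327). Without P1 ACM 1, the lowest array, it was -0.37 (adjusted p = 0.759), and without P1 DMEM 3, the highest, -0.46.

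At P3 SKIL stood at -1.64, -0.73 and -0.63 in ACM and -0.61, 0.06 and 0.04 in DMEM. All 3 ACM arrays lay below all DMEM arrays, the pair of P3 ACM 3 and P3 DMEM 1 nearly touching. SKIL was the only member in this order at P3, which was found for 5.02% of all genes, and 0 of 9 members lay above in ACM, against 4.76%. The difference was -0.83, or 1.78-fold lower in ACM (SE 0.40, 95% interval -1.72 to 0.06, limma p = 0.0643, adjusted p = 0.702, exact permutation p = 0.1). It was past the thresholds without P3 ACM 3 (-1.02, adjusted p = 0.313) or P3 DMEM 1 (-1.05, adjusted p = 0.584), and was -0.51 (adjusted p = 0.765) without P3 ACM 1.

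SKIL levels were also read by slide, and a part of the slides in them was not tested. P3 ACM 1 on slide 1 stood at -1.64, and P3 ACM 2 and 3 on slide 2 had a mean of -0.68. P1 DMEM 3 on slide 3 stood at 0.22, and P1 DMEM 1 and 2 on slide 2 had a mean of -0.51. Such groups did not overlap between their slides for 77.6% (P3 ACM) and 79.5% (P1 DMEM) of all genes. Slide 1 itself spanned -1.65 to -0.29, and P1 ACM 1 to 3 minus P3 ACM 1 gave 0.66 there, with overlapping arrays. The only slide with both media held different passages: on slide 2, P3 ACM 2 and 3 minus P1 DMEM 1 and 2 gave -0.16, with overlapping arrays. With slide as a block the SKIL differences turned to 0.50 at P1 and 0.22 at P3, and with slide as a random block they were -0.35 and -0.56. The block fit links the slides only by P3 ACM 1 and P1 DMEM 3 against the other arrays of their groups. In it the smallest adjusted p of any member was 0.947 at P1 and 0.977 at P3 (limma). Under the labels of the deposited table the SKIL differences were 0.18 and 0.82.

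CCN2, the connective tissue growth factor gene and a common readout of TGF-beta and of YAP signalling, was higher in ACM on average at both passages without passing a test. Its levels were 3.80, 4.30 and 4.51 in P1 ACM and 3.39, 4.05 and 4.12 in P1 DMEM. At P3 they were 3.83, 3.90 and 3.60 in ACM and 2.77, 3.66 and 3.59 in DMEM. The media overlapped at both passages, and P3 DMEM 1 was the lowest of the 12 arrays. The differences were 0.35, or 1.28-fold (SE 0.29, 95% interval -0.29 to 0.99, adjusted p = 0.562), and 0.44, or 1.35-fold (SE 0.29, 95% interval -0.20 to 1.08, adjusted p = 0.743). Without P3 DMEM 1 the P3 difference was 0.15, and without P1 DMEM 1 the P1 difference was 0.12. With slide as a block the differences were 0.40 and 0.81, within slide 2 the value was 0.03, and under the labels of the deposited table the P3 difference was -0.71.

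TGFBI, which encodes a secreted matrix protein that binds integrins, was lower in ACM on average at both passages. Its levels were 6.70, 7.03 and 6.77 in P1 ACM and 7.05, 7.16 and 7.06 in P1 DMEM. All ACM arrays lay below all DMEM arrays at P1, with a difference of -0.26 (SE 0.19, limma p = 0.202, exact permutation p = 0.1). At P3 the levels were 6.99, 6.79 and 7.22 in ACM and 7.31, 7.76 and 7.20 in DMEM, which overlapped by the narrow margin of P3 ACM 3 over P3 DMEM 3. The P3 difference was -0.43, or 1.34-fold lower in ACM (SE 0.19, 95% interval -0.84 to -0.01, limma p = 0.0464, adjusted p = 0.702, exact permutation p = 0.2). It kept a p of 0.05 or less in 2 of the 12 fits that each left out 1 array, with p from 0.0260 to 0.177. Its direction turned under quantile normalization (0.13) and with normexp before it (0.09), while with slide as a block it was -0.47. Quantile normalization gave all 3 P3 ACM arrays and P3 DMEM 2 (7.76 before it) the same level of 7.24. That scaling could not show a difference among these arrays, so no direction is read from its value. Under the labels of the deposited table TGFBI was 0.22 at P1 and 0.25 at P3.

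**Figure D2:**
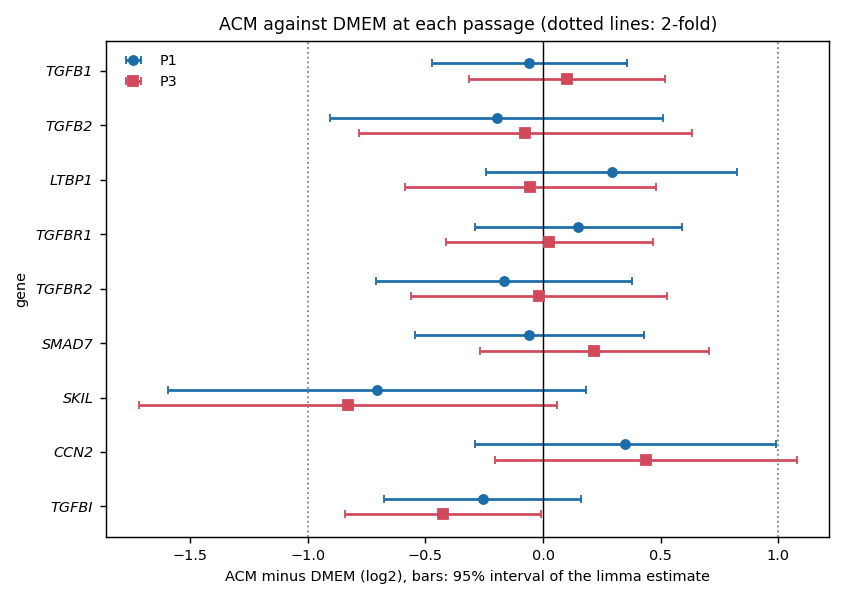
Difference between ACM and DMEM (log2) of the 9 genes at P1 (circles) and P3 (squares), with the 95% interval of the limma estimate and dotted lines at a 2-fold change. The intervals of SKIL reach past the lower line (-1.59 at P1 and -1.72 at P3), and that of TGFBI at P3 ends just below 0 (-0.01).

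The effect of ACM did not differ between the passages for any member beyond the spread. The difference of the ACM effect (P3 minus P1) passed the thresholds for 0 of 9 members, against 6.86% of all genes, and 0 of 9 had a p of 0.05 or less, against 8.24%. The lowest p was that of LTBP1, with a difference of -0.35 (SE 0.34, adjusted p = 0.895). For SKIL the difference was -0.12 (SE 0.57, 95% interval -1.38 to 1.13) and for CCN2 0.09 (SE 0.41, 95% interval -0.82 to 0.99).

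The passages were also compared within each medium. Of the 9 members, none had a p of 0.05 or less from P1 to P3 in DMEM, where 8.13% of all genes did, or in ACM, where 13.7% did. In DMEM the differences (P3 minus P1) ran from -0.51 (SE 0.29, adjusted p = 0.577) for CCN2 to 0.46 (SE 0.24, adjusted p = 0.571) for LTBP1, and in ACM from -0.43 (SE 0.29, adjusted p = 0.589) for CCN2 to 0.17 (SE 0.19, adjusted p = 0.802) for TGFBI. CCN2 therefore had its lowest mean in P3 DMEM and its highest in P1 ACM, at a distance in each medium that did not pass the test.

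**Figure D3:**
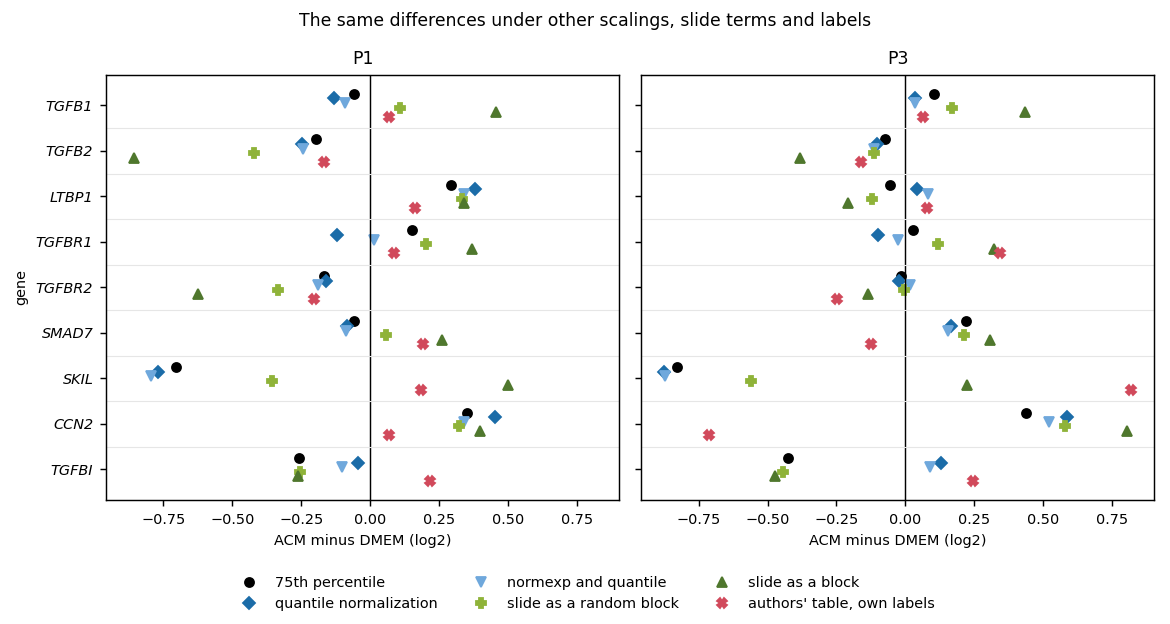
Difference between ACM and DMEM (log2) of the 9 genes at P1 (left) and P3 (right) under the scaling of the report (75th percentile, black) and under other scalings, slide terms and the labels of the deposited table. For SKIL the scalings lie together (-0.71 to -0.79 at P1), while slide as a block (0.50) and the table (0.18) lie on the other side of 0.

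The sequences before the transcription start are shown for SKIL and CCN2, the members with the largest differences in each direction, and for SMAD7, an inhibitor of the same pathway that was nearly level at P1. Each is the 250 bases before the most upstream RefSeq transcript start in GRCh38.p14, given 5′ to 3′ on the strand of the gene. Capitals mark the letters CAGAC or GTCTG (a SMAD binding element on either strand) and GGAATG or CATTCC (a TEAD element, through which YAP acts, on either strand).
SKIL, chr3:170357465-170357714, plus strand: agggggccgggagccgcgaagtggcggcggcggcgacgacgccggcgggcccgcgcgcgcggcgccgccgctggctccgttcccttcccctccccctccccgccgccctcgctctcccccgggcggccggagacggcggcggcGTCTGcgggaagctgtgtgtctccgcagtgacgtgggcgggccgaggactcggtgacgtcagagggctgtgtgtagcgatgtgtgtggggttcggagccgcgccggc
SMAD7, chr18:48950966-48951215, minus strand: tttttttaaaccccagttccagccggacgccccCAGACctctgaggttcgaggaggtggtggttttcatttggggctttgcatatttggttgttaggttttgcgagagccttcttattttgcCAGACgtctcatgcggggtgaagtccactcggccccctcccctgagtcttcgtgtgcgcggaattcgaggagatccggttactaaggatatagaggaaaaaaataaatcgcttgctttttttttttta
CCN2, chr6:131951373-131951622, minus strand: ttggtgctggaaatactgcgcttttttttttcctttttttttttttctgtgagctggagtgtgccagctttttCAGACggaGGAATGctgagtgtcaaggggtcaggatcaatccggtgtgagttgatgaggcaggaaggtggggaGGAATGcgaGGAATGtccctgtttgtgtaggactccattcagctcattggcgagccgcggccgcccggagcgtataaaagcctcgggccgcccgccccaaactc

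The SKIL sequence held the SMAD element 1 time, starting at -107 from the transcription start, SMAD7 held it 2 times, at -217 and -128, and CCN2 1 time, at -177. CCN2 was also the richest of the 9 in TEAD elements, with 3, starting at -169, -104 and -95. The SMAD element was found in 5 of the 9 members (also in TGFB2 and LTBP1) and in 38.0% of 35116 promoters of the same length, and the TEAD element in 2 of 9 (CCN2 and TGFB2) and in 11.9%. The longer SMAD palindrome GTCTAGAC was in none of the 9 windows and in 0.182% of promoters, and the AP-1 element TGAGTCA (on either strand) in none and in 4.2%. The matches are letters in a window and not measured binding.

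Among the other genes of the pathway, a list of 61 that passed the filter of 63, 3 rose past the thresholds at P1, against 13.5% of all genes, and 0 fell, against 0.0989%. All 3 were among the 16 genes for ligands, latency and activation, and 0 of the 8 receptor, 15 SMAD and regulator and 22 target genes passed. The median difference of the 61 was -0.08, against 0.15 for all genes and -0.08 for the 8425 genes of highest mean level. The 3 were DCN (decorin, a proteoglycan that binds TGF-beta), LRRC32 (GARP, which holds latent TGF-beta at the cell surface) and NODAL (a ligand of the activin branch). None of the 61 had an adjusted p of 0.05 or less, against 5 with only the P1 arrays in the fit and 4 without P3 ACM 1.

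DCN stood at -2.86, -3.01 and -2.78 in P1 ACM and -4.38, -4.36 and -3.81 in P1 DMEM, with a difference of 1.30 (SE 0.28, limma p = 0.000821, adjusted p = 0.103, exact permutation p = 0.1). LRRC32 stood at -3.15, -3.22 and -3.00 against -4.82, -4.32 and -4.36, a difference of 1.38 (SE 0.37, limma p = 0.00322, adjusted p = 0.103, exact permutation p = 0.1). The ACM arrays of both lay above all DMEM arrays. NODAL had a difference of 1.69 (SE 0.51, limma p = 0.00719, exact permutation p = 0.1). It was well above background on all 3 P1 ACM arrays, on 1 of 3 P1 DMEM arrays and on all P3 DMEM arrays. The arrays on which it was not were those of slide 2 (P1 DMEM 1 and 2, P3 ACM 2 and 3), so it lies near the detection limit there.

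These 3 genes differed between the slides in P3 ACM, and a part of the slides in them was not tested. Of all genes, 24.4% differed by over 2-fold between the P3 ACM array on slide 1 and those on slide 2, and 77.6% did not overlap. In P3 ACM the array on slide 1 stood at -2.87 for DCN, -3.05 for LRRC32 and -4.76 for NODAL, the level of the P1 ACM arrays on that slide. The P3 ACM arrays on slide 2 stood at -3.84 and -4.07 for DCN, -4.77 and -4.08 for LRRC32 and -6.83 and -7.06 for NODAL. Within slide 3, DCN stood at -3.81 in P1 DMEM 3 and at -3.30, -3.17 and -3.32 in P3 DMEM. LRRC32 and NODAL overlapped between those groups on slide 3. With slide as a block the P1 differences were 0.40, 0.07 and -0.22, under quantile normalization they were 0.89, 0.92 and 0.74, below 2-fold, and under the labels of the deposited table they were -0.66, -0.16 and -0.47. For the same genes the difference of the ACM effect between passages passed the thresholds (3 of 61, against 6.81% of all genes in that direction).

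At P1 5 of the 61 genes had a p of 0.05 or less and were higher in ACM (23.1% of all genes), and 0 were lower (0.91%). The others were SNAI1, a transcription factor of epithelial-mesenchymal transition induced by TGF-beta, with 0.69 (SE 0.18, limma p = 0.00330, exact permutation p = 0.1), and ACVR1C, the ALK7 receptor, with 0.66 (SE 0.28, limma p = 0.0359, exact permutation p = 0.1). ACVR1C was 0.25 after quantile normalization, 0.23 under a slide block and 0.03 under the labels of the table. With the replicate number as a block its limma p was 0.0562 and with pairs of the same passage 0.0910 (exact permutation p without pairs 0.1), so it lost its call. With pairs of the same passage BAMBI (-0.65 at P1) was called lower, with a limma p of 0.0465 (exact permutation p without pairs 0.3), and was 0.12 under the labels of the table. SNAI1 stood at 1.97, 1.41 and 1.77 in P1 ACM and 0.97, 1.19 and 0.91 in P1 DMEM, so the media did not overlap. Its difference became 0.77 after quantile normalization, 0.51 under a slide block and -0.15 under the labels of the table. Of 15 genes for SMADs and their regulators, 13 had a difference below 0 at P1 (9112 of all 25275 genes) and 2 at P3 (12539 of 25275). Their median difference was -0.12 at P1 and 0.14 at P3. It was 0.15 and 0.00 for all genes, and -0.08 and -0.09 for the 8425 genes of highest mean level. The smallest p of the 15 at P1 was that of PMEPA1 (-0.44, SE 0.24, adjusted p = 0.310), a feedback inhibitor that the pathway induces.

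At P3 0 of 61 genes rose past the thresholds, against 0.914% of all genes, and 2 fell, against 0.819%. BAMBI, a decoy receptor without a kinase domain that blocks signalling, stood at 1.08, 1.87 and 2.46 in P3 ACM and 2.82, 3.23 and 3.33 in P3 DMEM. The media did not overlap, and the difference was -1.33 (SE 0.43, limma p = 0.0111, adjusted p = 0.659, exact permutation p = 0.1). It was -1.21 after quantile normalization, -0.42 under a slide block and 0.68 under the labels of the table. The second gene was COL3A1, the fibrillar collagen III gene, named here after its values were seen because its arrays overlapped: -3.01 ± 2.19 in P3 ACM and -0.51 ± 0.52 in P3 DMEM (SD, n = 3 each), a difference of -2.50 (SE 1.07, limma p = 0.0396, exact permutation p = 0.2). It was -0.57 under a slide block, 1.34 under the labels of the table, -1.51 without P3 ACM 1 and -3.68 without P3 ACM 3.

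The count at P3 rested on single arrays: it was 0 without P3 ACM 1, 1 without P3 ACM 2, P3 DMEM 1 or P3 DMEM 2, and 6 without P3 ACM 3. At p of 0.05 or less 1 gene was higher (3.85% of all genes) and 3 were lower (3.43%). COL1A1, a collagen I chain gene, was lower by -0.66 (SE 0.22, limma p = 0.0134, exact permutation p = 0.1), with 4.06, 4.73 and 4.63 in P3 ACM below 5.12, 5.06 and 5.22 in P3 DMEM. The COL1A1 difference was -0.42 after quantile normalization, -0.26 under a slide block and -0.02 under the labels of the table, without its call in any of these. SMURF2, a ubiquitin ligase that acts with SMAD7 on the receptor, was higher by 0.90 (SE 0.39, limma p = 0.0440, exact permutation p = 0.2) with overlapping arrays. It was 0.50 without P3 ACM 1 and -0.56 under the labels of the table. Of the ligand genes TGFB3 had the smallest p (-0.98, SE 0.52, adjusted p = 0.704), with 0.99 under the labels of the table and -0.49 without P3 ACM 1.

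**Figure D4:**
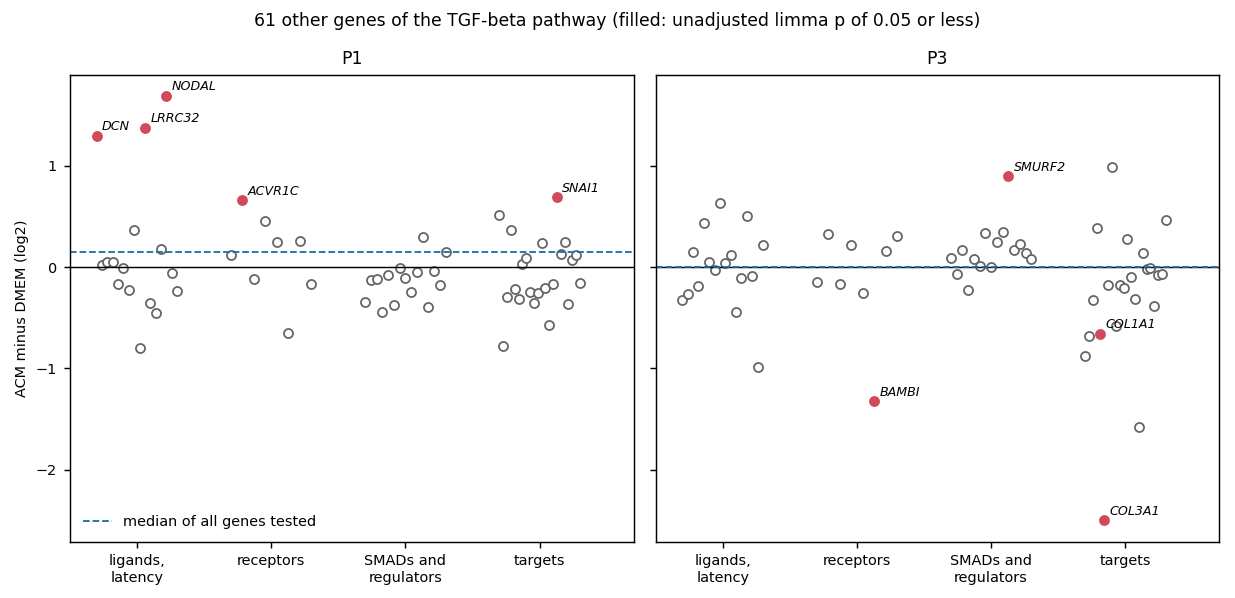
Difference between ACM and DMEM (log2) of the 61 other pathway genes at P1 (left) and P3 (right), by role; each point is a gene, filled points have an unadjusted limma p of 0.05 or less, and the dashed line is the median of all genes tested. At P1 the filled points lie above 0 (DCN, LRRC32, NODAL, ACVR1C, SNAI1), and at P3 BAMBI, COL1A1 and COL3A1 lie below it and SMURF2 above.

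Markers of other cells were read beside these genes. Of 6 fibroblast markers, of which DCN is one, 1 rose past the thresholds at P1 (13.5% of all genes) and 0 at P3 (0.914%), and their summed linear level, in units of the 75th percentile, was 41.7 to 44.7 in P1 ACM and 35.9 to 42.8 in P1 DMEM. At P3 that sum was 32.2 to 59.2 with ACM and 35.7 to 61.9 with DMEM. Of 6 microglia markers that passed the filter, CX3CR1 rose past the thresholds at P1 (13.5% of all genes) and 0 did at P3 (0.914%). P2RY12 passed the filter only through P1 ACM and is left out of that count, since it was well above background on 3 of 3 P1 ACM and 0 of 3 P1 DMEM arrays. At P3 ITGAM (0.68, limma p = 0.0106) and PTPRC (0.75, limma p = 0.00489) lay above all DMEM arrays, below 2-fold (exact permutation p = 0.1 each). Of all genes at P3, 3.85% were higher with a p of 0.05 or less, and 4.76% lay above without overlap. The 6 microglia markers had summed levels that at P1 were 16.7 to 23.8 with ACM and 12.1 to 17.6 with DMEM, and at P3 were 14.01 to 21.3 with ACM and 9.80 to 11.9 with DMEM. Such sums mostly follow the brightest probes and are not a reading of the whole list. In P1 ACM these were ITGAM (mean log2 level 4.28) for microglia, THY1 (4.46) and COL1A2 (4.22) for fibroblasts, and GJA1 (1.81) for astrocytes. Of 7 astrocyte markers that passed the filter, 2 rose and 1 fell at P1 (13.5% and 0.0989% of all genes) and 1 fell at P3 (0.819%), with summed levels (GFAP, which did not pass, included) that at P1 were 4.16 to 5.87 with ACM and 5.29 to 6.17 with DMEM, and at P3 were 3.55 to 6.05 with ACM and 4.19 to 5.23 with DMEM. GFAP was well above background on 2 of 3 P1 ACM and 1 of 3 P3 ACM arrays, and on 2 of 3 arrays of each DMEM group. S100B, 1 of the 2 astrocyte markers that rose at P1, was so on 0 of 3 P1 DMEM arrays. The part of such cells in the pathway genes was not tested.

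The genes whose levels over the 12 arrays were most like those of a member are given as a description. CCN2 was followed most closely by JPH2 (Pearson's r 0.92), MAPK11 (0.87) and SOWAHD (0.86), and TGFB2 by NPPB (0.83), SNAP23 (0.80) and PRSS16 (0.78), among 15520 genes on 12 arrays that share 3 slides. Under quantile normalization the r with CCN2 was 0.70 for JPH2, 0.82 for MAPK11 and -0.03 for SOWAHD, so JPH2 was no longer the closest. With TGFB2 it was 0.81 for NPPB, 0.76 for SNAP23 and 0.61 for PRSS16. Among the 9 members themselves the closest were TGFB2 and TGFBR2 (r 0.63, and 0.58 under quantile normalization, where TGFBR1 and SKIL were closer at 0.67), and the most opposed were LTBP1 and TGFBR2 (r -0.79). SKIL and CCN2 did not follow each other (r 0.07).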

How the data were processed

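RNA of Daoy cells in ACM or DMEM at P1 and P3 was measured on 12 single-colour arrays, grouped by their labels. The authors deposited scanner output with a background-corrected intensity for each spot (Agilent Feature Extraction 11.0.1.1, not normalized between arrays). They also deposited a table of log2 values, whose columns follow other samples' arrays and which was used only as an alternative. A normalization is not given in the sources used here. Spots with an outlier call and 1377 control spots were left out. No spot was saturated. The intensities were divided by the 75th percentile of the array, and log2 was taken. A probe was kept if all arrays of 1 or more groups called it well above background (31078 of 34127). Symbols came from matching accessions to the RefSeq table of GRCh38.p14 (25771 probes, 75.5%), and probes without a match kept the name in the file. Promoter sequences came from RefSeq for the same build, and all 9 members matched.

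A model with 4 group means was fitted in R 4.3.3 with limma 3.58.1 (lmFit, then contrasts and eBayes, two-sided), with 8 residual degrees of freedom and Benjamini-Hochberg adjustment over all kept probes; the fit was tested on simulated data. Slide was taken from the scan record that 4 arrays share in the file headers. Pathway genes were named where past the thresholds without overlap, or with the smallest p of their role. Members and lists were chosen with earlier results of these data known. The labels give independent experiments, and p-values measure the spread between these arrays, whose number limits the precision. The alternatives were other scalings, filters, tests, slide and replicate blocks, arrays left out and the mean of a gene's probes. Figures were drawn with matplotlib 3.10.9.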

Additional observations from a re-analysis of the deposited data

How the results depend on the processing

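The 9 members were refitted under 25 alternatives. At P1 TGFB2, LTBP1, TGFBR2 and CCN2 kept their direction under all 25, and each other member at P1 and each of the 9 at P3 turned at least once. The cause of these turns was not tested. Other pathway genes past the thresholds at P1 numbered 0 in place of 3 under quantile normalization, normexp, the deposited table, slide as a block and slide as a random block. All genes past the thresholds numbered 218 to 3830 at P1 under the scalings, filters, tests and blocks (3439 in the report), and 157 to 1518 at P3 (438 in the report). At an adjusted p of 0.05 or less, all genes at P1 numbered 2095 under the methods' t-test, 4849 with only the arrays compared, 5185 without P3 ACM replicate 1 and 0 or 1 otherwise, and at P3 0 or 1, with 0 members in any of these.

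Under quantile normalization TGFBR1 turned to -0.12 at P1 and -0.10 at P3, LTBP1 to 0.0436 and TGFBI to 0.13 at P3, and the difference between passages to 0.0216 for TGFBR1 and 0.18 for TGFBI. The P3 ACM arrays of TGFBI were tied at the same level under this normalization. With normexp before it, LTBP1 turned to 0.0820, TGFBR1 to -0.0250, TGFBR2 to 0.0153 and TGFBI to 0.0903 at P3, and the difference between passages to 0.19 for TGFBI. The mean of the LTBP1 probes gave 0.0621 at P3.

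With slide as a block TGFB1 turned to 0.46, SMAD7 to 0.26 and SKIL to 0.50 at P1, SKIL to 0.22 at P3, and the difference between passages to -0.0219 for TGFB1. With slide as a random block TGFB1 was 0.11 and SMAD7 0.0584 at P1. Under the labels of the deposited table TGFB1 was 0.0675, SMAD7 0.19, SKIL 0.18 and TGFBI 0.22 at P1. At P3 LTBP1 was 0.0799, SMAD7 -0.12, SKIL 0.82, CCN2 -0.71 and TGFBI 0.25. The difference between passages was -0.00354 for TGFB1, 0.26 for TGFBR1, -0.0420 for TGFBR2, -0.32 for SMAD7, 0.64 for SKIL, -0.78 for CCN2 and 0.0316 for TGFBI.

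Members with a p of 0.05 or less at P1 numbered 1 in place of 0 under the methods' t-test (LTBP1) and under either replicate block (SKIL). At P3 they numbered 0 in place of 1 under quantile normalization, the methods' t-test, the deposited table and either slide term, and 2 (TGFBI and SKIL) with trend and robust. Under normexp, with only the arrays compared and under either replicate block the number stayed at 1 but the gene was SKIL in place of TGFBI. Other pathway genes past the thresholds at P3 numbered 1 under the methods' t-test and 0 with slide as a random block, in place of 2. At P3 the correlations of arrays with the same number were 0.23, -0.19 and 0.06, and the P3 arrays were not read as pairs. With the replicate block the limma p at P3 was 0.00115 for SKIL and 0.0512 for TGFBI, and with pairs of the same passage 0.00165 and 0.0911. The blocks changed no other call of a member.

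With 1 array left out, members past the thresholds numbered 0 to 1 at P1 and at P3, members with a p of 0.05 or less 0 to 1 at P1 and 0 to 2 at P3, and other pathway genes past the thresholds 0 to 6 at P3. At P1 TGFB1 ran from -0.13 to 0.0318, TGFBR1 from -0.0785 to 0.30 and SMAD7 from -0.20 to 0.0410. At P3 TGFB1 ran from -0.00959 to 0.25, TGFB2 from -0.28 to 0.25, LTBP1 from -0.31 to 0.22, TGFBR1 from -0.0213 to 0.0733 and TGFBR2 from -0.25 to 0.24. The difference between passages ran from -0.0869 to 0.44 for TGFB2, -0.28 to 0.11 for TGFBR1, -0.0791 to 0.40 for TGFBR2, -0.46 to 0.22 for SKIL and -0.20 to 0.32 for CCN2.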
